A study of Mus musculus with 10 samples.

Results

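Genes that mark and regulate hematopoietic stem and progenitor cells were measured in myeloid-derived suppressor cells (MDSC) and tumor-associated macrophages (TAM) of tumor-bearing mice. The 10 genes were Gata2, Meis1, Hoxa7, Hoxa9, Hoxa10, Cd34, Kit, Flt3, Erg and Sox4. They were chosen by name, and each symbol was matched through its Ensembl identifier to 1 of the 55421 rows of the raw count table. Of the 10 genes, 8 passed the filter on low counts in MDSC and 7 in TAM.

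The study collected RNA from cells of mice bearing MC17-51 fibrosarcoma at day 15, and asked how the phosphatase SHP-2 shapes the myeloid response to a tumor. MDSC were taken from the spleen as GR-1+ cells, by magnetic beads for Ly6G-positive, Ly6C-negative cells according to the methods, and TAM were sorted from the tumor as CD45+CD11b+F4/80+Ly6G- cells. In each cell type the comparison was between Shp2f/f mice, which carry floxed alleles of Ptpn11 (the gene of SHP-2) and served as controls, and Shp2f/fLysMcre mice, which carry the same floxed alleles and Cre recombinase. The Cre is driven by the lysozyme M promoter at the Lyz2 locus, which is active in myelomonocytic cells and macrophages. Deletion of Ptpn11 in stem cells, progenitors or other lineages was not measured here. All 4 groups came from mice with a tumor, aged 8 to 12 weeks, of both sexes, and no group without a tumor was measured. There were 2 libraries for each genotype of MDSC and 3 for each genotype of TAM, both cell types were taken from the same mice, and neither which libraries shared a mouse nor whether mice were pooled was stated. P-values therefore measure the spread between these libraries.

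In blood formation, the transcription factors GATA2, ERG and MEIS1 with the HOXA proteins keep stem and early progenitor cells in an undifferentiated state, and their genes are turned down as granulocytes and macrophages mature. KIT and FLT3 are receptor tyrosine kinases that carry survival and growth signals from stem cell factor and FLT3 ligand, and CD34 is a surface sialomucin used to isolate progenitors. SOX4 is a transcription factor of lymphoid and myeloid progenitors that is also expressed in many other immature or activated cells. HOXA proteins bind DNA together with the TALE homeodomain proteins MEIS and PBX, and HOXA9 and HOXA10 are known to be regulated by tyrosine phosphorylation, which SHP-2 removes. The counts here measure RNA, and neither the proteins nor their phosphorylation.

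Total counts were 33262119 to 36541823 in MDSC and 28844660 to 38222998 in TAM. Levels are given as CPM, the count relative to the library size after TMM scaling over all 10 libraries, and comparisons between genes as RPKM, the same value per kilobase of exon. MDSC held S100a8 at 3260 to 9040 CPM, and Ly6g, the gene of the antigen used to select them, at 8.92 to 33.2 CPM. Csf1r, the receptor of macrophage colony-stimulating factor, was at 1030 to 1440 CPM in MDSC. In TAM it averaged 1460 CPM in Shp2f/f and 1650 CPM in Shp2f/fLysMcre mice. Adgre1, the gene of F4/80, was at 209 to 383 CPM in MDSC and at 636 to 997 CPM in TAM. Ptpn11 was at 99.2 to 113.0 CPM in Shp2f/f and 79.7 to 94.8 CPM in Shp2f/fLysMcre MDSC, and at 121.0 to 125.0 CPM and 50.9 to 54.2 CPM in TAM. Lyz2, whose locus holds the Cre, was at 8970 to 9460 CPM and 43.3 to 47.1 CPM in MDSC, and at 3440 to 3670 CPM and 9.38 to 12.6 CPM in TAM. Deletion of Ptpn11, the presence of Cre and the low Lyz2 RNA coincide in the Shp2f/fLysMcre groups. In every genotype difference below they cannot be told apart. MDSC Shp2f/fLysMcre replicate 2 stood apart from the other 3 MDSC libraries, with Col1a1 at 173.0 CPM and Col3a1 at 117.0 CPM, both collagen genes of fibroblasts that were at most 14.2 CPM in the others. In bulk RNA, fewer cells of a type and less RNA per cell cannot be told apart.

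The Ets factor gene Erg, on chr16:95359169-95586593 (GRCm38, minus strand), carried the largest genotype difference among the 8 tested members in MDSC. The RefSeq table for GRCm38.p6 holds 3 start sites for it, which the counts per gene do not separate. The windows of 250 bases before to 50 after each start are printed 5′ to 3′ on the minus strand, because Erg is the member whose RNA rose in MDSC. The single window of Sox4, the member with the smallest adjusted p in TAM, follows. Capitals mark short words that were searched on both strands. The word bound by GATA factors was AGATAA. For Ets factors such as ERG itself the word was CGGAAG. For TALE factors such as MEIS1 the searched word was TGACAG.
Erg start 1, chr16:95586544-95586843: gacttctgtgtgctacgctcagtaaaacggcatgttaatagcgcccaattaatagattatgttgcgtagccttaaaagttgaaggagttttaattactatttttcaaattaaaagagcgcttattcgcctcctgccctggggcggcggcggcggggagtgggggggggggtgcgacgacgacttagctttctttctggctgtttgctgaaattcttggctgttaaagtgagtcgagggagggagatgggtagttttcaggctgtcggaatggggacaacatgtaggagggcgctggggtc
Erg start 2, chr16:95530316-95530615: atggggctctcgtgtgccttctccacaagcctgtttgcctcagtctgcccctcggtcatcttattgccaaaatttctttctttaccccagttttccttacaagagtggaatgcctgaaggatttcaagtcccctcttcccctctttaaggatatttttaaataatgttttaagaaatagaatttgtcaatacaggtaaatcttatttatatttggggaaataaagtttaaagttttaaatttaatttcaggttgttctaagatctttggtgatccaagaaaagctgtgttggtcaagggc
Erg start 3, chr16:95459299-95459598: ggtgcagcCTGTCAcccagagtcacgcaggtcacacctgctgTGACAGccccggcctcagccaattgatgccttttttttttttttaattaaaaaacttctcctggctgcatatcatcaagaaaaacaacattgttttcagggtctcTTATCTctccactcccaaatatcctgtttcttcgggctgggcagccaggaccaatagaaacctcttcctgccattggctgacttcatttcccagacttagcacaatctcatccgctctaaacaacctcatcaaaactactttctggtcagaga
Sox4, chr13:28953650-28953949: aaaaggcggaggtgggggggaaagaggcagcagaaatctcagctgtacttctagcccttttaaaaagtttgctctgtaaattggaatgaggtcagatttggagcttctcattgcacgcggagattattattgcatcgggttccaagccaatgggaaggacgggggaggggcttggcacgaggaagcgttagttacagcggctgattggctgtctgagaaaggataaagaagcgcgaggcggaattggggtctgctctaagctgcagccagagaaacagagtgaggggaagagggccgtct
The third window of Erg held 1 GATA word and 2 TALE words, and the other 3 printed windows held none of the words. Windows were found for all 10 members, 15 in all, of which 1 held a GATA word, 1 an Ets word (Meis1) and 1 a TALE word. Of 32817 windows of all genes, 11.2% held the GATA word, 16.9% the Ets word and 19.2% the TALE word. A word is a match of letters and not a measured site.

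Erg was low in MDSC of Shp2f/f mice and about 5-fold higher in MDSC of Shp2f/fLysMcre mice, whereas the other tested members differed by less than 1.5-fold. Both Shp2f/fLysMcre libraries lay above both Shp2f/f libraries for Erg, with 400 and 260 counts against 64 and 56. These counts corresponded to 10.8 and 6.52 CPM against 1.86 and 1.62 CPM. The log2 difference was 2.31 (SE 0.313, 4.96-fold, adjusted p = 0.024 by the quasi-likelihood test of edgeR). Of the 8 tested members it was the only one called at an adjusted p under 0.05, where 4.28% of the 14806 genes tested were called, 3.76% as higher and 0.520% as lower. Before adjustment, 3 members (Erg, Gata2 and Meis1) had a p under 0.05. The adjusted p of Erg was 0.0666 with no filter on low counts, and 0.591 and 0.673 without Shp2f/f replicate 1 or 2, with a log2 difference of 2.22 to 2.41 in these fits. Without Shp2f/fLysMcre replicate 1 it was 0.00246 and without replicate 2 it was 3.21e-11, and over all alternatives it ran from 3.21e-11 to 0.673.

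**Figure D1:**
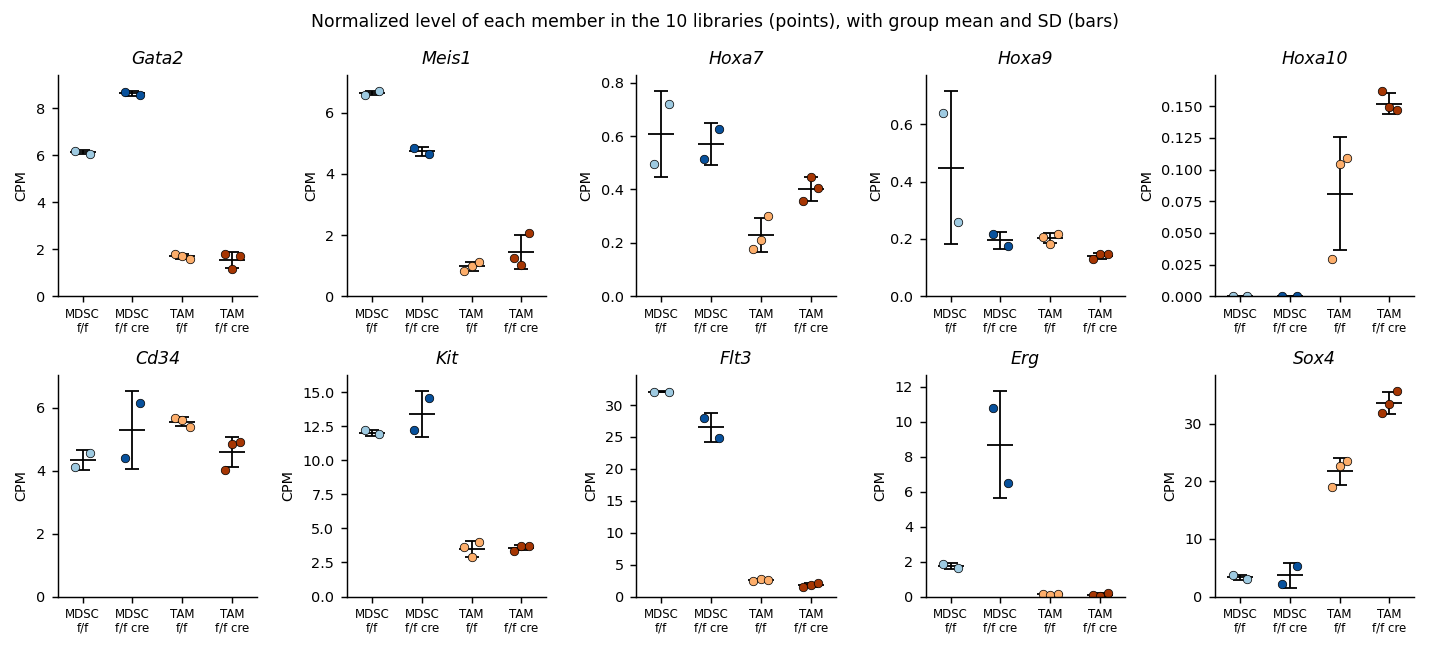
CPM of each of the 10 members (vertical axes from 0, a separate scale for each gene) in the 10 libraries, grouped as MDSC Shp2f/f, MDSC Shp2f/fLysMcre (f/f cre), TAM Shp2f/f and TAM Shp2f/fLysMcre. Points are libraries, and bars give the group mean and SD (n = 2 for MDSC, n = 3 for TAM). Erg stood at 10.8 and 6.52 CPM in the Shp2f/fLysMcre MDSC, above every other library, and Hoxa10 had 0 counts in the 4 MDSC libraries.

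Gata2, whose product is needed by hematopoietic stem cells and by mast cells, had 321 and 341 counts in Shp2f/fLysMcre MDSC and 213 and 210 in Shp2f/f MDSC. Its level was 8.62 ± 0.108 CPM against 6.12 ± 0.0881 CPM (SD, n = 2), and the groups did not overlap. The log2 difference of 0.49 (SE 0.155) had an adjusted p of 0.173 and was not called. Without Shp2f/fLysMcre replicate 2 it was 0.51 with an adjusted p of 0.0357.

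Meis1, the gene of the TALE partner of HOXA9, had 179 and 185 counts in Shp2f/fLysMcre and 227 and 232 in Shp2f/f MDSC. Both Shp2f/fLysMcre libraries were lower, with 4.74 ± 0.152 CPM against 6.64 ± 0.0735 CPM (SD, n = 2). The log2 difference was -0.49 (SE 0.172) with an adjusted p of 0.209. In these libraries Gata2 and Meis1 thus differed in opposite directions, each by 1.4-fold and neither past the threshold.

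The 3 HOXA genes lie side by side on chr6, Hoxa7 at chr6:52214491-52221854, Hoxa9 at chr6:52223100-52231089 and Hoxa10 at chr6:52231197-52240854, all on the minus strand. They were the least abundant members in MDSC. Hoxa10 had 0 counts in all 4 MDSC libraries, with an exact 95% counting interval of 0 to 3.69 counts in each. The floor set for the members, 3 counts a library, corresponded to 0.0752 to 0.0871 CPM in MDSC. The level of Hoxa10 in MDSC was therefore too low to measure, and no genotype difference of its RNA was detectable at this depth. Hoxa9 had 22 and 9 counts in Shp2f/f MDSC and 8 and 7 in Shp2f/fLysMcre MDSC, and failed the filter. The ratio of the summed Hoxa9 counts was 0.435, with a 95% exact interval of 0.218 to 0.831 that covers counting error only, and the Shp2f/f sum rested on the 22 counts of replicate 1. Hoxa7 had 17 and 25 counts in Shp2f/f and 19 and 25 in Shp2f/fLysMcre MDSC, and its log2 difference of -0.1 (SE 0.375, adjusted p = 0.933) was smaller than its error. Of the exon bases of Hoxa7, 20.376% are shared with the antisense gene Hoxaas3 (4 to 12 counts a library), and the strand setting of the counting was not stated.

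Among the surface molecules, Flt3 was the most abundant member in MDSC. It had 1103 and 1113 counts in Shp2f/f and 1034 and 993 in Shp2f/fLysMcre MDSC, or 32.0 and 32.1 against 28.0 and 24.9 CPM. The Shp2f/fLysMcre libraries were the lower ones, and the log2 difference of -0.28 (SE 0.119, adjusted p = 0.28) was not called. It was called without Shp2f/fLysMcre replicate 1, at -0.41.

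Kit had 420 and 412 counts in Shp2f/f MDSC and 452 and 583 in Shp2f/fLysMcre MDSC. The groups did not overlap, but Shp2f/fLysMcre replicate 1, at 12.2 CPM, was level with Shp2f/f replicate 1, and the log2 difference was 0.15 (SE 0.141, adjusted p = 0.655). Cd34 had 142 and 158 counts in Shp2f/f against 163 and 246 in Shp2f/fLysMcre MDSC, with a log2 difference of 0.28 (adjusted p = 0.609). Sox4 had 126 and 103 counts in Shp2f/f against 78 and 208 in Shp2f/fLysMcre MDSC, so that one Shp2f/fLysMcre library was below and the other above both controls (log2 difference 0.13, adjusted p = 0.918). Without replicate 2 the Sox4 difference was -0.64. Kit, Cd34 and Sox4 each had their highest MDSC value in Shp2f/fLysMcre replicate 2, the library with the fibroblast RNA. In it the stromal genes Col1a2, Lum and Sparc were at 122.0, 56.8 and 102.0 CPM, and the endothelial genes Emcn and Cldn5 at 2.16 and 1.65 CPM against at most 0.0581 CPM in the other MDSC libraries. The part of these transcripts in the values of Kit, Cd34 and Sox4 was not tested.

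Of the 8 tested members, 5 (Gata2, Meis1, Kit, Flt3 and Erg) had no overlap between the genotypes in MDSC. Over all tested genes that share was 48.9%. The median log2 difference of the 8 members was 0.14, and that of all tested genes was -0.01.

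**Figure D2:**
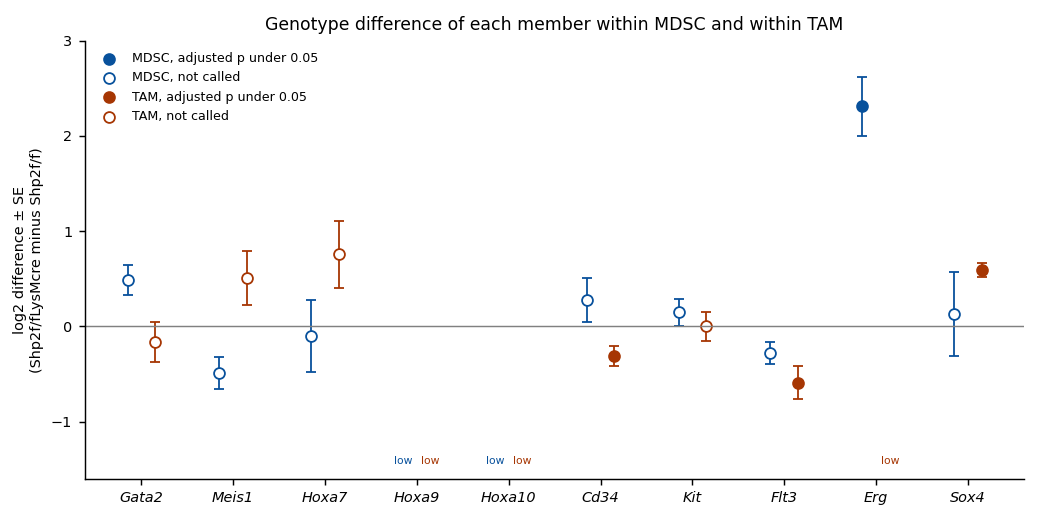
Log2 difference between Shp2f/fLysMcre and Shp2f/f (vertical axis, with SE) of each member in MDSC (blue, n = 2 a group) and TAM (orange-brown, n = 3 a group). Filled symbols passed an adjusted p under 0.05, and "low" marks members that failed the filter on low counts. In MDSC only Erg is filled, at 2.31, and in TAM Cd34, Flt3 and Sox4 are filled, at -0.31, -0.59 and 0.59.

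In TAM, Sox4 was higher, and Flt3 and Cd34 were lower, in Shp2f/fLysMcre mice, each by 1.51-fold or less. Sox4 had 985, 1126 and 968 counts in Shp2f/fLysMcre TAM and 640, 865 and 862 in Shp2f/f TAM. On the CPM scale these were 31.8, 33.4 and 35.6 against 19.0, 22.6 and 23.5, with no overlap. The log2 difference of Sox4 was 0.59 (SE 0.0761, adjusted p = 6.46e-05). It had the same direction in every alternative run in TAM, with a range of 0.5 to 0.67, and missed the threshold in the fit of all 10 libraries, at 0.0531. Of the exon bases of Sox4, 54.557% lie opposite a long noncoding RNA gene (Gm26735) that has no row in the count table.

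Flt3 in TAM fell from 84, 106 and 98 counts to 45, 62 and 57, or from 2.64 ± 0.141 to 1.8 ± 0.323 CPM (SD, n = 3), without overlap. Its log2 difference was -0.59 (SE 0.174, adjusted p = 0.0146), and without Shp2f/f replicate 2 the adjusted p was 0.0534. Cd34 fell from 192, 215 and 198 counts to 125, 163 and 134, or from 5.56 ± 0.147 to 4.6 ± 0.489 CPM. Its log2 difference of -0.31 (SE 0.106, adjusted p = 0.0308) was past the threshold in edgeR, but the adjusted p was 0.122 in DESeq2, 0.0597 without a filter, 0.204 in the fit of all 10 libraries, and 0.0532 to 0.104 without any of 5 of the 6 libraries. Cd34 is also expressed by endothelial cells and fibroblasts, and Flt3 by dendritic cells. Of the endothelial list, 3 of 7 tested genes rose and 1 fell in TAM, and of the dendritic cell list 5 of 8 fell, among them Siglech from 0.434 to 0.136 CPM and Ccr7 from 8.53 to 6.55 CPM. Of the fibroblast list, 4 of 12 fell in TAM (Thy1 -0.9, Sparc -0.29, Col3a1 -0.27 and Pdgfra -0.24) and 1 rose (Pdgfrb 0.72). Over all genes tested in TAM, 23.9% were called higher and 26.3% lower. The part of endothelial cells, fibroblasts and dendritic cells in the values of Cd34 and Flt3 was not tested.

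The other members were not called in TAM. Hoxa7 had 6, 8 and 11 counts in Shp2f/f and 11, 15 and 11 in Shp2f/fLysMcre TAM, without overlap after scaling (log2 difference 0.76, SE 0.352, adjusted p = 0.0939). Meis1 had 28, 38 and 41 against 39, 34 and 56 counts (0.51, adjusted p = 0.163). Gata2 had 61, 65 and 58 against 56, 39 and 46 counts (-0.16, adjusted p = 0.552). Kit was at 3.51 ± 0.592 and 3.58 ± 0.193 CPM in the 2 genotypes (SD, n = 3), with a log2 difference of 0.0 and an SE of 0.149. Erg, Hoxa9 and Hoxa10 failed the filter in TAM. Erg had 4, 4 and 6 counts in Shp2f/f and 3, 1 and 5 in Shp2f/fLysMcre TAM, a ratio of 0.762 with a counting interval of 0.291 to 1.89. Hoxa10 had 1, 4 and 4 against 5, 5 and 4 counts, a ratio of 1.84 (interval 0.743 to 4.83), and Hoxa9 had 7, 7 and 8 against 4, 5 and 4 counts, a ratio of 0.7 (interval 0.324 to 1.45).

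The 3 calls among 7 tested members, 1 higher and 2 lower, stood against 50.2% of 14446 tested genes called in TAM, 23.9% as higher and 26.3% as lower. With scaling by total counts alone, the split of the calls over all genes was 2342 higher and 5227 lower, in place of 3452 and 3805, and the median of all genes was -0.11 in place of -0.01. The 3 member calls and their directions were the same under that scaling. Of the 7 tested members, 4 (Hoxa7, Cd34, Flt3 and Sox4) had no overlap between the genotypes, against 57.9% of all tested genes.

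Among the 8 members in the fit of all 10 libraries, the difference between the genotype effects of the cell types was called for Erg only, but its TAM side was too low to measure. The fitted difference, TAM minus MDSC, was -2.68 on the log2 scale (SE 0.676, adjusted p = 0.0175). Over all 16581 genes tested, 24.9% were called, 12.2% as higher and 12.7% as lower. Erg failed the filter in TAM, with 1 to 6 counts a library, and entered this fit only through its MDSC counts, so its value is given as a description. The counting interval of its TAM ratio, 0.291 to 1.89, covers changes in either direction. The adjusted p was 0.0667 without MDSC Shp2f/f replicate 2 and 0.059 without TAM Shp2f/f replicate 3. For Meis1, which was lower in MDSC and higher in TAM of Shp2f/fLysMcre mice, the difference of effects was 1.03 (SE 0.375, adjusted p = 0.0728). For Gata2 it was -0.62 (adjusted p = 0.111), for Cd34 -0.56 (0.11), for Hoxa7 0.89 (0.23), for Sox4 0.48 (0.413), for Flt3 -0.28 (0.276) and for Kit -0.12 (0.716). The Sox4 difference rested on single libraries, being 1.28 (adjusted p = 0.00202) without MDSC Shp2f/fLysMcre replicate 2 and -0.01 without replicate 1. The Cd34 difference was -0.77 (adjusted p = 0.00606) without MDSC Shp2f/fLysMcre replicate 1.

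Per kilobase of exon, the members formed different orders in the 4 groups. In Shp2f/f MDSC, Flt3 was highest at 5.19 ± 0.0106 RPKM (SD, n = 2), followed by Kit at 1.35 ± 0.0243 and Gata2 at 1.13 ± 0.0163. Sox4 (0.692 ± 0.101), Meis1 (0.631 ± 0.00698), Cd34 (0.596 ± 0.0423) and Erg (0.501 ± 0.0494) came next. Their order rests on small distances and on SDs from n = 2. Hoxa7 followed at 0.211 ± 0.056 and Hoxa9 at 0.0805 ± 0.048 RPKM, and Hoxa10 was listed at 0. In Shp2f/fLysMcre MDSC, Erg moved to the second place at 2.5 ± 0.882 RPKM, behind Flt3 at 4.28 ± 0.359 and ahead of Gata2 (1.6 ± 0.02) and Kit (1.51 ± 0.187). Because the Erg libraries stood at 3.13 and 1.88 RPKM, its place relative to Gata2 rests on values that spread more than their distance.

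In TAM, Sox4 led the members at 4.52 ± 0.501 RPKM in Shp2f/f and 7.01 ± 0.392 RPKM in Shp2f/fLysMcre (n = 3). All other members were under 1 RPKM there. Cd34 was second in Shp2f/f TAM (0.763 ± 0.0201), followed by Flt3 (0.428 ± 0.0228) and Kit (0.393 ± 0.0664), which overlapped, and Gata2 (0.314 ± 0.0208). Meis1 (0.093 ± 0.0138) and Hoxa7 (0.0795 ± 0.0221) were within their spread of each other, as were Erg (0.0372 ± 0.00895), Hoxa9 (0.0363 ± 0.00328) and Hoxa10 (0.0248 ± 0.0136).

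**Figure D3:**
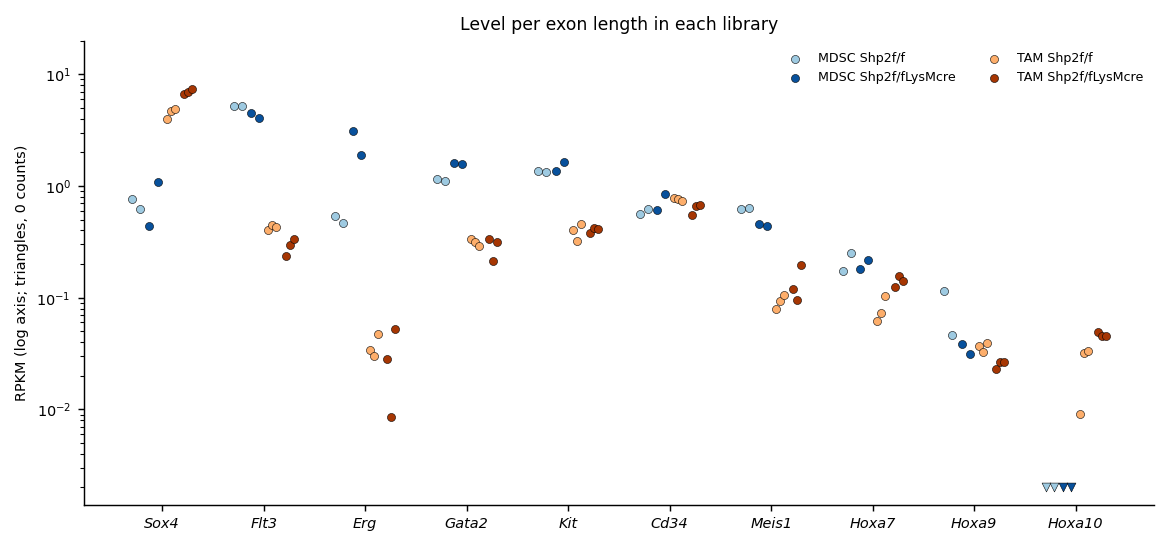
RPKM of the 10 members (log axis) in each of the 10 libraries, colored by group, ordered from left to right by the highest group mean. Triangles mark libraries with 0 counts, drawn at the bottom. Sox4 is at 4.52 and 7.01 RPKM on average in TAM, Flt3 at 5.19 and 4.28 RPKM in MDSC, and the HOXA genes lie at or under 0.211 RPKM on average in every group.

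Between the cell types, 6 members were lower and 1 was higher in TAM than in MDSC of Shp2f/f mice. Erg was 1 of the 6, and its call is a description only. Over all tested genes 69.6% were called in this comparison, 35.1% as higher and 34.6% as lower in TAM. Flt3 was 12.1-fold lower in TAM (log2 difference -3.6, SE 0.119, adjusted p = 3.44e-09), Meis1 6.77-fold lower, Gata2 3.61-fold lower, Kit 3.43-fold lower and Hoxa7 2.62-fold lower. Erg passed the filter here through its MDSC counts alone, and its summed counts were 14 in TAM and 120 in MDSC, a ratio of 0.0741 with a counting interval of 0.0393 to 0.129. Sox4 ran the other way and was 6.54-fold higher in TAM (log2 difference 2.71, SE 0.291, adjusted p = 1.93e-05). Cd34, with a log2 difference of 0.36 (adjusted p = 0.079), was not called.

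In Shp2f/fLysMcre mice, 6 of the 8 tested members were called, against 68.9% of all genes, 32.3% as higher and 36.6% as lower in TAM. Flt3, Gata2, Kit, Meis1 and Erg were lower, and Sox4 was 9.13-fold higher. Erg again passed the filter through its MDSC counts alone, so its call is a description only. Its summed counts were 9 in TAM and 660 in MDSC, a ratio of 0.0114 (counting interval 0.00519 to 0.0218). Hoxa7 (-0.5, adjusted p = 0.222) and Cd34 (-0.2, adjusted p = 0.294) were not called. Hoxa10 was the only member with counts in all 6 TAM libraries (1 to 5) and none in MDSC. The cell type comparisons also differ in organ and in the way of isolation, which cannot be told apart from the cell type.

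Genes whose profile over the 10 libraries lay nearest to each member were found by the root mean square difference of centered log2 CPM, among the 12541 genes that averaged 1 CPM or more. For Erg they were Rflnb (0.323), Cebpe (0.381) and Mgst2 (0.465). Cebpe, a transcription factor gene of granulocyte maturation, was at 13.9 CPM in Shp2f/f and 53.2 CPM in Shp2f/fLysMcre MDSC, and at 1.1 and 1.23 CPM in TAM. Rflnb was at 22.9 and 81.2 CPM in MDSC, and Mgst2 at 7.54 and 28.6 CPM. For Gata2 the nearest genes were Nxn (0.165), Cdh23 (0.191) and Zbtb46 (0.196), for Meis1 Fzd4 (0.212), Gm45546 (0.242) and Fam217b (0.247), and for Kit Dleu2 (0.109), Lefty1 (0.124) and Pced1b (0.136). For Flt3 they were P2ry1 (0.153), Pdlim1 (0.167) and Trem3 (0.171), for Sox4 Maff (0.216), Rcor2 (0.225) and Eva1b (0.263), and for Cd34 Tagap1 (0.1), Bcl7c (0.104) and U2af1 (0.104). The profiles are dominated by the difference between MDSC and TAM, and the distances are a description.

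Markers of other cells moved in the same direction as Erg in MDSC, where 3.76% of all tested genes were called higher and 0.520% lower. Of the granulocyte-monocyte progenitor list, 7 of 8 tested genes were higher in Shp2f/fLysMcre MDSC, including Gfi1 (log2 difference 2.26), Cebpe (1.93), Ms4a3 (1.66) and Mpo (1.54), and the summed level of the list was 585.0 to 630.0 CPM of total counts in Shp2f/f and 1290 to 1470 in Shp2f/fLysMcre. The neutrophil list had 5 of 10 genes higher, with Ngp (2.57), Ltf (2.49), S100a9 (1.63) and Ly6g (1.59) leading, and the proliferation list 15 of 18. Of the erythroid list, 11 of 14 were higher, with Rhd (1.69) and Slc4a1 (1.63) leading, and Car1 was lower (-0.63). Of the mast cell and basophil list, whose cells also use Gata2 and Kit, 3 of 6 were higher, namely Ms4a2 (1.55), Prss34 (1.43) and Mcpt8 (1.39). Cpa3, a mast cell protease gene, was at 1.1 to 1.68 CPM in Shp2f/f and 2.66 to 3.44 CPM in Shp2f/fLysMcre MDSC. It was not called (log2 difference 1.13, adjusted p = 0.137 by edgeR). Cma1, Tpsb2 and Mcpt4 of the same list failed the filter in MDSC. Erg is also expressed by endothelial cells, of which Cdh5 and Tie1 are markers. In the MDSC Shp2f/fLysMcre library with the highest Erg, replicate 1, Cdh5 was at 0.569 CPM and Tie1 at 0.271 CPM, within the 0.346 to 0.639 and 0.26 to 0.29 CPM of the Shp2f/f libraries, while in replicate 2 they were at 2.33 and 2.73 CPM. Of the 7 tested endothelial genes, Flt1 alone was called (1.77), at 1.36 and 1.67 CPM in Shp2f/f and 5.42 and 5.01 CPM in Shp2f/fLysMcre, and the summed list was at 27.9 to 29.4 CPM in Shp2f/f and at 35.6 and 55.7 CPM in Shp2f/fLysMcre MDSC. The part of progenitor, neutrophil, erythroid, mast cell, endothelial and proliferating cells in the values of Erg, Gata2 and Kit was not tested.

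**Figure D4:**
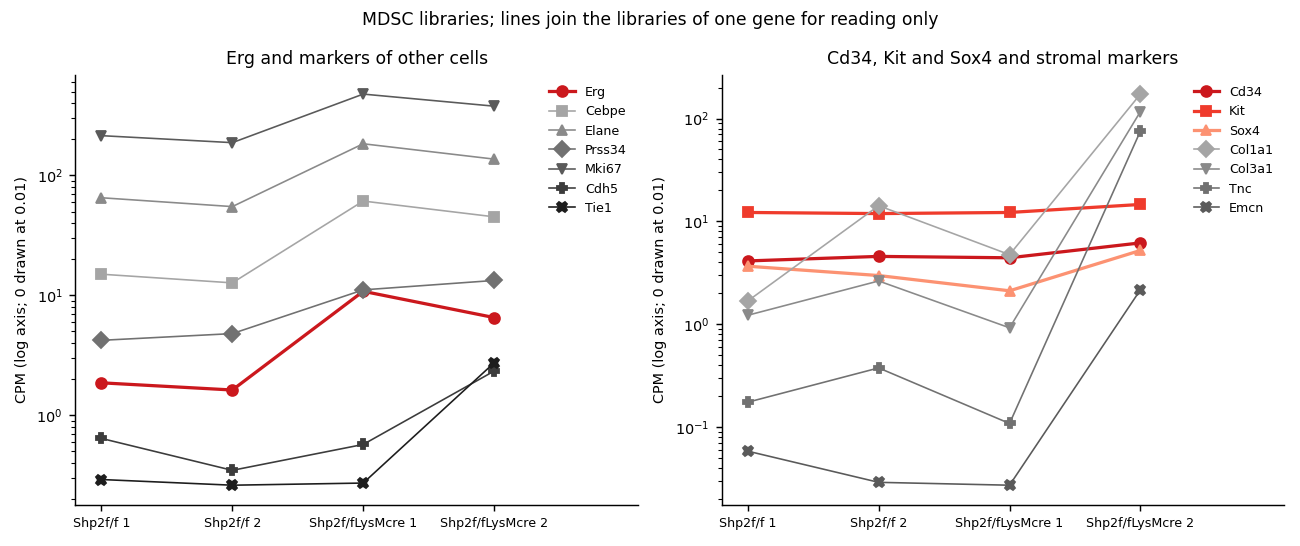
CPM (log axis) in the 4 MDSC libraries of Erg beside markers of granulocyte progenitors (Cebpe, Elane), basophils (Prss34), proliferation (Mki67) and endothelium (Cdh5, Tie1) on the left, and of Cd34, Kit and Sox4 beside fibroblast (Col1a1, Col3a1, Tnc) and endothelial (Emcn) markers on the right. Lines join the values of 1 gene. Erg is highest in Shp2f/fLysMcre replicate 1 at 10.8 CPM, where Cdh5 and Tie1 are at 0.569 and 0.271 CPM, and Col1a1 reaches 173.0 CPM in replicate 2. The endothelial gene Flt1, which was called higher, is not drawn. It averaged 1.52 CPM in Shp2f/f and 5.22 CPM in Shp2f/fLysMcre MDSC.

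The other lists of marker genes had few calls each in MDSC, where 4.28% of all tested genes were called. In the edgeR fit of the 4 MDSC libraries, none of 10 tested macrophage or 10 tested fibroblast genes was called. Before adjustment 4 and 7 of them had a p under 0.05, and DESeq2 called 4 macrophage and 2 fibroblast genes. With the replicate block 9 fibroblast genes were called higher, and in the fit of all 10 libraries 8 were. For macrophage genes these fits called 2 higher and 3 lower, and 1 higher and 4 lower. The median log2 difference of the fibroblast list, 4.22, rested on Shp2f/fLysMcre replicate 2. In replicate 1 Col1a1 was at 4.74 CPM and Col3a1 at 0.921 CPM, against 1.68 and 14.2 CPM and 1.22 and 2.63 CPM in Shp2f/f, and without replicate 2 the fibroblast list had 1 gene higher and 1 lower. Single calls were made in 3 lists, where 1 of 9 megakaryocyte genes (Itgb3, 0.97), 1 of 9 dendritic cell genes (Cd209a, 1.07) and 1 of 10 T and NK cell genes (Nkg7, 1.19) were higher. Of 8 B cell genes 2 were lower, among them Pax5 (-2.83), a B cell transcription factor gene. Over all genes tested in TAM, 50.2% were called. All 10 macrophage genes were higher there, whereas all 18 proliferation and all 10 T and NK cell genes were lower. Of the remaining lists in TAM, calls were made for 1 higher of 4 granulocyte-monocyte progenitor genes, 4 higher and 1 lower of the 7 erythroid, 2 higher and 1 lower of 5 megakaryocyte, 1 higher of 5 mast cell and basophil, 1 higher and 4 lower of 12 fibroblast, 1 higher of 3 B cell and 5 higher and 1 lower of 9 neutrophil genes.

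Further genes of early hematopoiesis were counted over whole lists. In Shp2f/fLysMcre MDSC, 3.76% of all tested genes were called higher and 0.520% lower. Of 17 tested early progenitor transcription factor genes, 4 were higher there and none lower. These were Hlf (0.478 against 2.34 CPM, log2 difference 2.28), Gfi1b (1.29), Tal1 (0.92) and Zfpm1 (0.87). Hlf encodes a transcription factor of stem cells, and the last 3 genes are also used in erythroid and megakaryocyte cells. Runx1 (-0.45, adjusted p = 0.15) was not called. The median of the list was 0.14, against -0.01 over all tested genes. In TAM, 7 of 16 were higher and 2 lower, where 50.2% of all tested genes were called. The list median was 0.29. Leading were Myb (-1.47, from 0.811 to 0.301 CPM), Lyl1 (1.06), Gfi1b (-0.9, from 1.33 to 0.728 CPM) and Nfe2 (0.81). Of these, Gfi1b was higher in MDSC and lower in TAM of Shp2f/fLysMcre mice.

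Against 3.76% of all tested genes, 3 of 14 progenitor surface genes were higher in Shp2f/fLysMcre MDSC. They were Prom1, the gene of CD133 (5.78 ± 0.455 against 27.9 ± 5.46 CPM, log2 difference 2.26), Ly6a, the gene of Sca-1 (1.24), and Epor, the erythropoietin receptor gene (1.06). Procr and Esam, markers of stem cells and of endothelium, had values of 0.465 and 0.462 and of 0.465 and 0.577 CPM in Shp2f/f, but 0.244 and 1.58 and 0.434 and 2.48 CPM in the 2 Shp2f/fLysMcre libraries, so that only replicate 2 was high. In TAM, 6 of 11 surface genes were higher and 2 lower, with Cd27 (-0.91), Procr (0.54), Il1rl1 (-0.48) and Csf2rb (0.41) the furthest from 0. Over all genes tested in TAM, 23.9% were called higher and 26.3% lower.

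**Figure D5:**
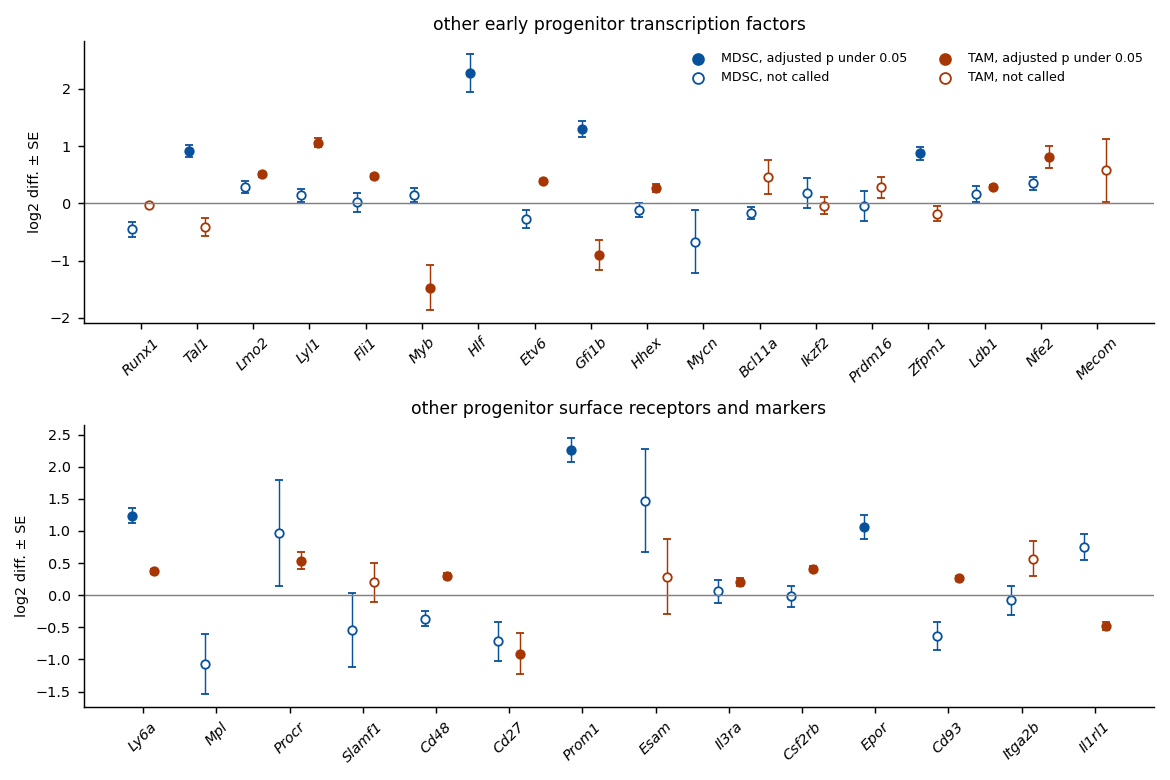
Log2 difference between Shp2f/fLysMcre and Shp2f/f (vertical axes, with SE) of the tested early progenitor transcription factor genes (top) and progenitor surface genes (bottom) in MDSC (blue, n = 2 a group) and TAM (orange-brown, n = 3 a group). Filled symbols passed an adjusted p under 0.05. In MDSC the filled genes are Tal1, Hlf, Gfi1b, Zfpm1, Ly6a, Prom1 and Epor, all above 0.

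The partners and described targets of the HOXA genes gave few calls in MDSC, where 4.28% of all tested genes were called. In TAM that share was 50.2%. Of 8 tested HOXA and TALE genes none was called by edgeR in the fit of the 4 MDSC libraries or by DESeq2, and 2 had an unadjusted p under 0.05. With the replicate block 2 were lower, and without either Shp2f/fLysMcre library 1 was higher and 1 lower. Pbx2, at 93.4 to 105.0 CPM, was far above the HOXA genes in MDSC, and Hoxa13 had 0 counts in every library. In TAM, 2 of 9 tested genes were higher, Pbx2 (0.44) and Meis3 (0.43), and 3 were lower, led by Hoxa2 (-1.17). Hoxa2 was low, at 0.433 CPM in Shp2f/f and 0.194 CPM in Shp2f/fLysMcre TAM. DESeq2 called 2 higher and 1 lower in TAM, and the fit of all 10 libraries 1 higher and 0 lower. Of 8 genes described downstream of HOXA9 or MEIS1, none was called by edgeR in the fit of the 4 MDSC libraries or by DESeq2 (2 with an unadjusted p under 0.05). The fit of all 10 libraries called 2 higher, the replicate block 1 higher, and the fit without Shp2f/fLysMcre replicate 2 called 1 higher and 1 lower. In TAM 3 of 7 were higher and 3 lower, with Myb (-1.47, from 0.811 to 0.301 CPM), Lmo2 (0.51), Pim1 (0.46) and Cdk6 (-0.45) leading. Of 5 tested genes described downstream of HOXA10, Itgb3 (0.97) was higher in MDSC, and of 7 in TAM, Itgb3 (-1.01) and Dusp4 (-0.74) were lower and Cybb (0.34) higher. Cybb, a gene of the phagocyte oxidase that HOXA10 is known to repress, was at 849.0 to 1510 CPM in MDSC and was not called there. Neither Kitl nor Flt3l, the genes of the ligands of KIT and FLT3, was called by DESeq2 or by edgeR in the fits of the 4 MDSC and of the 6 TAM libraries, with list medians of 0.35 and 0.18. Without TAM Shp2f/f replicate 3, 1 of them was called higher in TAM. An unadjusted p under 0.05 was found for 0 of the 2 in MDSC and 1 in TAM.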

How the data were processed

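RNA from 10 samples of sorted mouse cells was sequenced by the authors as stranded, poly(A)-selected, paired-end libraries. The authors trimmed reads with Cutadapt 2.5, aligned them to GRCm38 with STAR 2.7.3a, counted reads per Ensembl gene with featureCounts (Subread 1.6.2) and deposited raw counts, whole reads per gene with no normalization. Whether counting used strand, or kept multi-mapping reads, is not given in the sources used here. The normalized table of the series was not used.

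Groups and replicate numbers came from the sample titles. Identifiers were matched to GENCODE M21 (GRCm38; 99.52% matched), which also gave coordinates and exon lengths. Tests ran on the deposited counts in edgeR 4.0.16, under R 4.3.3 (filterByExpr with a minimum count of 10, TMM, quasi-likelihood F test, Benjamini-Hochberg adjustment over all tested genes, call at an adjusted p under 0.05), for genotype within each cell type and, in a fit of all 10 libraries with 1 coefficient per group, for the cell types and the difference of the genotype effects. SE was the absolute log2 difference over the square root of F. For genes under the filter, ratios of summed counts carry an exact 95% interval for counting error only. Sums over marker lists are CPM of total counts. Replicates differed by 4.46 to 58.1 chi-square per degree of freedom, more than sampling noise. That does not show that they came from separate mice, and each library was counted as its own sample. The coefficient of variation between libraries fitted by edgeR was 0.189 in MDSC and 0.0595 in TAM. The scripts were tested on simulated data.

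All 10 members were named. Of each list, up to 4 called genes with the largest change per cell type were named, and further genes (such as Cpa3, Procr, Esam, Runx1 and Hoxa13) were chosen after their values were seen. Some genes of the lists are counted but not reported by name here. The members and lists were chosen with earlier results of these data known. Alternatives were DESeq2 1.42.0, its size factors, total counts, no filter or a minimum count of 50, a replicate block, a fit of all 10 libraries, leaving out each library and, chosen after seeing the data, voom of limma 3.58.1 with weights per cell type.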

Additional observations from a re-analysis of the deposited data

Results flagged for a closer look

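For Erg, the interaction term of the edgeR fit of all 10 libraries, TAM minus MDSC, was -2.68 on the log2 scale (adjusted p = 0.0175). It is given as a description and does not show that the genotype effect differs between the cell types. Erg was higher in 2 of 2 Shp2f/fLysMcre libraries than in either Shp2f/f library in MDSC. In TAM it failed the filter, with 1 to 6 counts a library, so it entered the test only through MDSC, and the TAM effect was too low to measure. The call was lost without MDSC Shp2f/f replicate 2 (adjusted p = 0.0667) and without TAM Shp2f/f replicate 3 (adjusted p = 0.059), and over all alternatives the adjusted p ran from 0.0034 to 0.0667. By voom with weights per cell type the value was -2.78 (adjusted p = 0.0319).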

How the results depend on the processing

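Of 581 values of single members under the alternatives, 541 kept their direction and their side of the threshold, 16 lost a call, 10 gained one and 14 changed sign, and the causes were not tested. Among the members, 0 were called in MDSC with no filter (9 tested), 1 was called in TAM in the fit of all 10 libraries, and leaving out each library gave 0 to 2 in MDSC, 1 to 3 in TAM and 0 to 3 for the difference of the effects. Leaving out a library of a group of 2 leaves a lone sample that is assumed to vary like the others. Over all genes in MDSC, 633 were called, against 1236 with DESeq2, 130 with no filter and 2666 in the fit of all 10 libraries, and 1 to 4406 when a library was left out, namely 1 without either Shp2f/f library, 2729 without Shp2f/fLysMcre replicate 2 and 4406 without replicate 1. Over all genes in TAM, 7257 were called, against 4837 in the fit of all 10 libraries. For the difference of the effects, 4132 genes were called, with 2446 to 7023 when a library was left out. Scaling by total counts gave 1234 higher and 3132 lower in place of 2030 and 2102 for the difference of the effects (median of all genes -0.18), and 4297 and 7440 in place of 5354 and 6075 for the cell types in Shp2f/fLysMcre (median -0.26).

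Signs changed where values were near 0 or rested on single libraries. The Kit effect in TAM, 0.0, was 0.01 with DESeq2, its size factors and the replicate block, 0.03 in the fit of all 10 libraries, and 0.02, 0.13 and 0.04 without Shp2f/f replicate 1, Shp2f/f replicate 3 and Shp2f/fLysMcre replicate 1. Without 1 library at a time the Kit effect in TAM ran from -0.13 to 0.13, and in MDSC Hoxa7 ran from -0.35 to 0.2 (without Shp2f/f replicate 2) and Sox4 from -0.64 (without Shp2f/fLysMcre replicate 2) to 0.61, with -0.01 without Shp2f/f replicate 2. Gata2 in TAM ran from -0.29 to 0.02 (without Shp2f/fLysMcre replicate 2). The difference of the effects ran from -0.25 to 0.01 for Kit (without MDSC Shp2f/fLysMcre replicate 2) and from -0.01 (without replicate 1) to 1.28 for Sox4. Cd34 between the cell types of Shp2f/fLysMcre mice ran from -0.42 to 0.05 (without MDSC Shp2f/fLysMcre replicate 2).

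In TAM the replicate numbers did not show a pairing, as deviations of same-numbered libraries had correlations of -0.145, 0.09 and 0.015. In MDSC the correlation was 0.276. With 2 libraries a group this is a single value, which cannot settle whether the MDSC libraries were paired. The replicate block gave 2674 calls over all genes in MDSC, and called 2 members for the difference of the effects, the added one being Meis1 (1.01, adjusted p = 0.0276). Of the marker lists in MDSC, leaving out either Shp2f/f library gave 0 calls in every list, and leaving out Shp2f/fLysMcre replicate 2 gave 7 of 8 granulocyte-monocyte progenitor, 12 of 14 erythroid, 6 of 6 mast cell and basophil, 10 of 10 neutrophil and 18 of 18 proliferation genes higher. At 0 to 25 counts a library, the HOXA genes are limited by depth.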

Other observations

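Prom1, the gene of CD133, which was higher in Shp2f/fLysMcre MDSC, had 150 counts in TAM Shp2f/f replicate 3 and 0 to 7 counts in each of the other 5 TAM libraries, and it failed the filter on low counts in TAM. In the same library Erg had 6 counts.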
